A study of Saccharomyces cerevisiae with 24 samples.

Results

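The genes described here encode the aminoacyl-tRNA synthetases of budding yeast, chosen as a list of 35 loci by the compartment in which their enzymes work. Of these, 27 were in the files, out of 4442 gene pairs in all, and 8 (CRS1, GLN4, GUS1, MES1, SES1, MSF1, MSR1 and AIM10) were not analysed here. The cytosolic list held 16 genes in the files, 4 of which (ALA1, YOR335C; GRS1, YBR121C; HTS1, YPR033C; VAS1, YGR094W) make a product for both compartments, and the mitochondrial list held 11. The hybrid was the a/alpha diploid of BY4741, a laboratory strain, and RM11-1alpha, a vineyard-derived strain. The co-culture mixed 2 haploids of mating type a, BY4741 and RM11-1a, in 1 flask, so ploidy and mating type differed between the groups along with genotype. Both were grown at 30 °C with shaking at 250 rpm and harvested at an optical density of 1.0, started from 0.1. Each group had 12 libraries, and the labels give 4 technical-replicate cultures per group without tying libraries to them.

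Each synthetase joins 1 amino acid to its matching tRNAs, the step that fixes which amino acid a codon calls for. Yeast mitochondria translate a handful of their own messages with imported enzymes that nuclear genes encode, and some genes supply the cytosol and the mitochondrion from alternative start sites. Uncharged tRNA is sensed by the kinase Gcn2, which raises translation of Gcn4, an activator of amino acid synthesis genes and of some synthetase genes.

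Libraries held 165503 to 232428 reads in the hybrid, against 199838 to 227175 in the co-culture. Libraries of a group that agreed within sampling noise were summed, which gave 6 summed libraries per group. These outnumber the 4 cultures, so some share a culture, and the p-values measure only the spread between these libraries, which may be technical. The summed libraries, called replicates below, were unequal. Hybrid replicate 4 held 4 libraries (864207 reads) and hybrid replicate 1 held 1 (202848 reads). Co-culture replicate 2 held 3 (636969 reads) and co-culture replicate 1 held 1 (224041 reads). Leaving out a replicate therefore drops unequal numbers of reads. Among single libraries, 38 of 66 hybrid pairs and 16 of 66 co-culture pairs differed at a chi-square p under 0.001. All 27 synthetases together had 41274 reads in the hybrid, against 37460 in the co-culture. The cytosolic genes held 40137 and 36631 of these in the hybrid and the co-culture, and the mitochondrial genes 1137 and 829. Reads were counted only where BY and RM differ in sequence, so levels of different genes cannot be compared with each other, and levels below are CPM, read counts scaled to the TMM-adjusted size of each library.

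The promoters are shown first, because matches to some short motifs were spread unevenly over the compartments, as a description with no test. The 250 bases before the start codon were searched on both strands in the R64 assembly, a BY-type sequence. TGACTC, the core that Gcn4 binds, was in 7 of 16 cytosolic promoters (43.8%) and 0 of 11 mitochondrial ones, against 6.85% of 4323 promoters of all gene pairs matched to the assembly. AAAATTT, the core of the ribosomal RNA processing element (RRPE) found before many ribosome biogenesis genes, was in 12 of 16 cytosolic promoters (75%) and 1 of 11 mitochondrial ones (9.09%), against 22.5% of all. GATGAG, the PAC core that often accompanies it, was in 3 of 16 (18.8%), 1 of 11 (9.09%) and 16% of all. CCAAT, the core bound by the Hap2/3/4/5 complex of respiratory genes, was in 4 of 16 (25%), 2 of 11 (18.2%) and 35.9% of all. A run of AAAATTTT matches AAAATTT on both strands at once, so those matches overlap. These are letter matches, and no binding was measured.

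**Figure D1:**
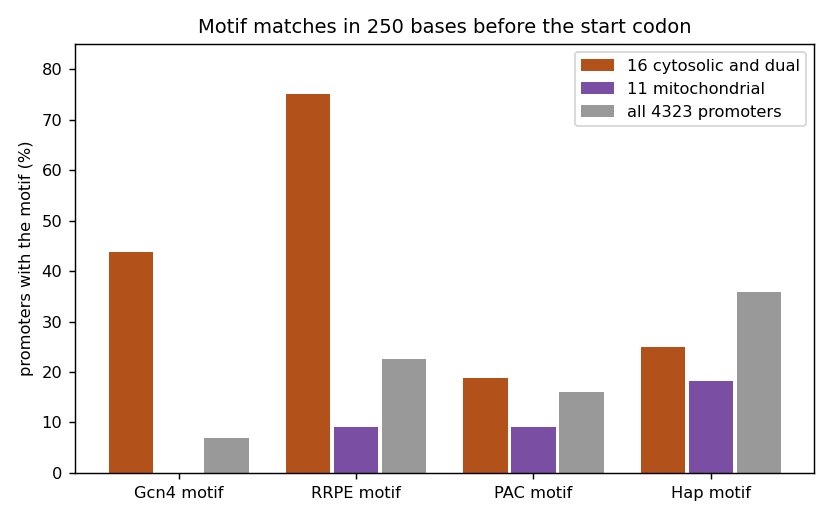
Percent of promoters that hold each motif (y axis) for the 16 cytosolic and dual genes, the 11 mitochondrial genes and all 4323 promoters, with bars from 0. The Gcn4 bar is 43.8% for cytosolic genes and at 0 for mitochondrial genes, against 6.85% of all promoters.

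Sequences are given for 4 genes whose levels or allele ratios the results turn on, 5′ to 3′ toward the start codon, with matches to the searched motifs in capitals. The THS1 window is chrIX:212249-212498 on the plus strand, with TGACTC starting 204 bases before the start codon. ALA1 is chrXV:949110-949359 on the minus strand, with GATGAG farther out and TGACTC 47 bases before the start codon. WRS1 (chrXV:137826-138075, minus strand) and GRS1 (chrII:483368-483617, minus strand) hold AAAATTTT but not TGACTC in these letters.
THS1: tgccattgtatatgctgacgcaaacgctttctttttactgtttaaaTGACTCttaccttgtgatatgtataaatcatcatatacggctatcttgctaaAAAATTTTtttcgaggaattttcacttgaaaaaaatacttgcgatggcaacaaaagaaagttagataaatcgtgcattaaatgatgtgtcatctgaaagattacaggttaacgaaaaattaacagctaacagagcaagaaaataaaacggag
ALA1: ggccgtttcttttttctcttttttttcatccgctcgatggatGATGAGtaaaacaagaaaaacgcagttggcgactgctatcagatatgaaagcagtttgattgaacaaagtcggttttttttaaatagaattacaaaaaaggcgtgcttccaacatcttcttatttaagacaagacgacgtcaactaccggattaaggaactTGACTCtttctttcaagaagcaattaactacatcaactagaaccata
WRS1: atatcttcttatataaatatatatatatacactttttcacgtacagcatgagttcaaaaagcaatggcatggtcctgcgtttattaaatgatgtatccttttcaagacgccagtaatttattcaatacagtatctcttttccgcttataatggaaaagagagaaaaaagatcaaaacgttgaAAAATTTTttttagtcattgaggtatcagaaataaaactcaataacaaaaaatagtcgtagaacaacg
GRS1: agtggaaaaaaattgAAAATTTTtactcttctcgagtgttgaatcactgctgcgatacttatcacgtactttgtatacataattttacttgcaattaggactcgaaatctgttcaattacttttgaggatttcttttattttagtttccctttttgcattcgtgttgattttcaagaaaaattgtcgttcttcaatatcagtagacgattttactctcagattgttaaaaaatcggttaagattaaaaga

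Total expression, the sum of both alleles, asked whether the diploid hybrid and the mixed haploids held different amounts of these transcripts. The folds of most synthetase genes were small. Of 19 with enough reads to test, 7 were higher in the hybrid, 2 were lower and 10 did not pass, so 47.4% were called, against 61.3% of 2793 genes tested (29.5% higher and 31.8% lower). The median absolute log2 fold was 0.14 over the 19 and 0.33 over all genes tested. The cytosolic genes gave 5 higher, 2 lower and 9 not passing, with a median log2 fold of 0.07 and a range of -0.22 to 0.36. The 3 mitochondrial genes above the read minimum gave 2 higher and 0 lower (also 0 lower at an unadjusted p and by DESeq2), with a median of 0.46. The median of all genes was 0.01. Adjusted p-values here and below are from edgeR's quasi-likelihood test with Benjamini-Hochberg adjustment over all genes tested. In bulk RNA, fewer cells of a kind and less RNA per cell cannot be told apart.

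WRS1 (YOL097C), the tryptophanyl-tRNA synthetase of the cytosol (chrXV:136527-137825, minus strand), was the cytosolic gene with the highest fold. Its levels ran from 767 through a median of 828 to 926 CPM in the hybrid, and from 592 through 673 to 688 CPM in the co-culture. Every hybrid library was above every co-culture library. The log2 fold was 0.36 (SE 0.06, adjusted p = 2.12e-07). WRS1 and THS1 were the 2 of 19 members whose groups did not overlap, against 31.3% of all genes tested.

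KRS1 (YDR037W), the lysyl enzyme, had 336 to 482 CPM in the hybrid, with a median of 380.3, and 278 to 373 CPM in the co-culture, with a median of 321. The groups overlapped in their middle, and the log2 fold was 0.27 (SE 0.08, adjusted p = 0.00183). FRS1 (YLR060W) and FRS2 (YFL022C) encode the beta and alpha subunits of the phenylalanyl enzyme, which works as a tetramer of both. FRS1 averaged 1132 ± 146 CPM in the hybrid, against 992 ± 92.0 CPM in the co-culture (SD, n = 6 each), a log2 fold of 0.18 (SE 0.06, adjusted p = 0.00656). FRS2 averaged 250.2 ± 41.0 and 228 ± 30.7 CPM in the hybrid and the co-culture, with a fold of 0.14 that did not pass (adjusted p = 0.164).

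GRS1, the glycyl enzyme of both compartments, was among the most deeply read members. Its hybrid levels were 2381 to 2633 CPM with a median of 2615, and its co-culture levels 2307 to 2423 CPM with a median of 2376. In all, 1 hybrid library lay inside the co-culture range and the other 5 above it, and the log2 fold was 0.12 (SE 0.04, adjusted p = 0.0105). DED81 (YHR019C), the asparaginyl enzyme, had 471 to 706 CPM in the hybrid (median 651) and 543 to 648 CPM in the co-culture (median 560). The hybrid held both the lowest and the highest library, and its log2 fold of 0.16 (SE 0.06, adjusted p = 0.0281) lost its call in 5 of the alternatives. DED81 (chrVIII:141894-143558, minus strand) and YHR020W, the prolyl enzyme (chrVIII:143996-146062, plus strand), are divergent neighbours, and YHR020W had a log2 fold of -0.01 (adjusted p = 0.896).

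ALA1, the alanyl enzyme of both compartments, and THS1 (YIL078W), the threonyl enzyme of the cytosol, were lower in the hybrid. ALA1 ran from 877 through a median of 964 to 1041 CPM in the hybrid, and from 991 through 1106 to 1187 CPM in the co-culture. Only the lowest co-culture library fell among hybrid values, and the log2 fold was -0.20 (SE 0.05, adjusted p = 0.000666). THS1 (chrIX:212499-214703, plus strand) ran from 3456 through 3858 to 3951 CPM in the hybrid, and from 3959 through 4097 to 4173 CPM in the co-culture. The groups did not overlap, by a narrow gap, and the log2 fold was -0.10 (SE 0.04, adjusted p = 0.0166). THS1 lost its call without hybrid replicate 3 (-0.08, adjusted p = 0.107), without co-culture replicate 6 (-0.07, adjusted p = 0.113) and with the stricter read minimum (-0.07, adjusted p = 0.064).

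The remaining cytosolic genes did not pass. HTS1 (histidyl, fold 0.09), VAS1 (valyl, 0.07), YDR341C (arginyl, 0.06), DPS1 (YLL018C, aspartyl, 0.06) and TYS1 (YGR185C, tyrosyl, 0.04) had log2 folds above 0. YHR020W stood at -0.01, CDC60 (YPL160W), the leucyl enzyme with a known role in leucine sensing, at -0.13 (adjusted p = 0.134), and ILS1 (YBL076C), the isoleucyl enzyme, at -0.22 (SE 0.12, adjusted p = 0.104). ILS1 and VAS1 were among the shallowest cytosolic members, with 311 and 283 reads in the hybrid, against 340 and 252 in the co-culture, which limits what their tests could show.

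**Figure D2:**
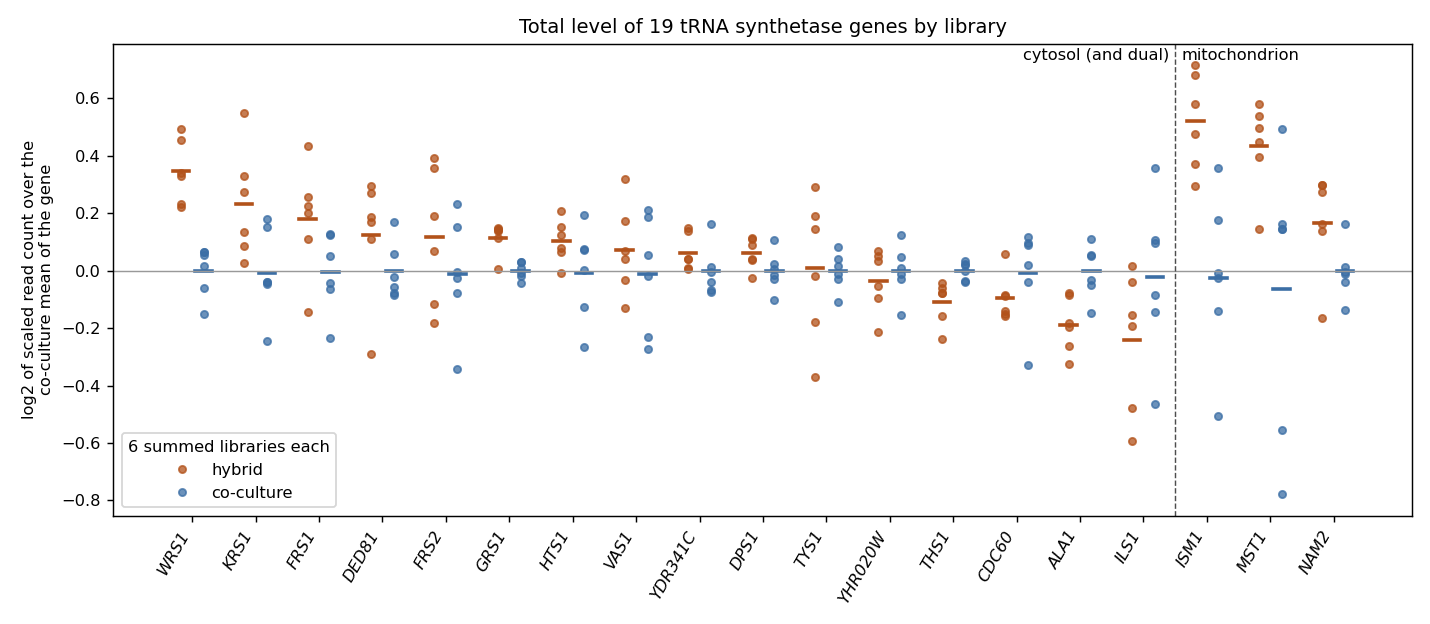
Total level of each of the 19 tested synthetase genes in each summed library, as the log2 of scaled reads over the gene's co-culture mean (y axis); points are the 6 summed libraries of the hybrid and of the co-culture and lines their means. WRS1 lies wholly above and THS1 wholly below the co-culture, while ISM1 and MST1 stand among the highest shifts, right of the dashed line.

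The scaling changed how many synthetase genes were called. Of the 16 cytosolic genes, 5 were higher and 2 lower with TMM scaling, against 823 and 889 of all 2793 genes. By DESeq2, 4 of the 16 were higher and 2 lower, against 732 and 783 of all genes. Cytosolic genes called numbered 9 higher and 0 lower without TMM scaling. They numbered 10 and 0 in the trend-removed fit described below. Without TMM scaling, the median of all genes moved to 0.12, the synthetase median to 0.20, and the calls to 12 higher and 0 lower, against 1066 higher and 699 lower over all genes. Across 2780 genes with a coding sequence, the log2 fold tracked the share of A bases in the coding sequence, with a Spearman rho of 0.553 as a description over genes of the same libraries. The cytosolic synthetase genes had a median A share of 31.2%, against 33.4% for the mitochondrial ones and 32.6% for all genes tested. After that trend was removed, 12 synthetases were higher and 0 lower, with a median of 0.27, against 782 higher and 690 lower (52.9% called) and a median of 0.02 over all genes. Over all 19 tested synthetases, DESeq2 gave 6 higher and 2 lower.

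The genes that gained a call with the trend removed were YDR341C, DPS1, HTS1, FRS2 and YHR020W. WRS1 then had a log2 fold of 0.50, DED81 0.47 and FRS1 0.34. ALA1 stood at -0.002 (adjusted p = 0.979) and THS1 at -0.0048 (adjusted p = 0.922), and without TMM scaling they stood at -0.10 (adjusted p = 0.0939) and 0.0022 (adjusted p = 0.961). Without TMM scaling both remained below the median of all genes, which stood at 0.12 there and at 0.01 with it. With the trend removed, both calls were lost. The part of base composition in these folds was not tested.

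**Figure D3:**
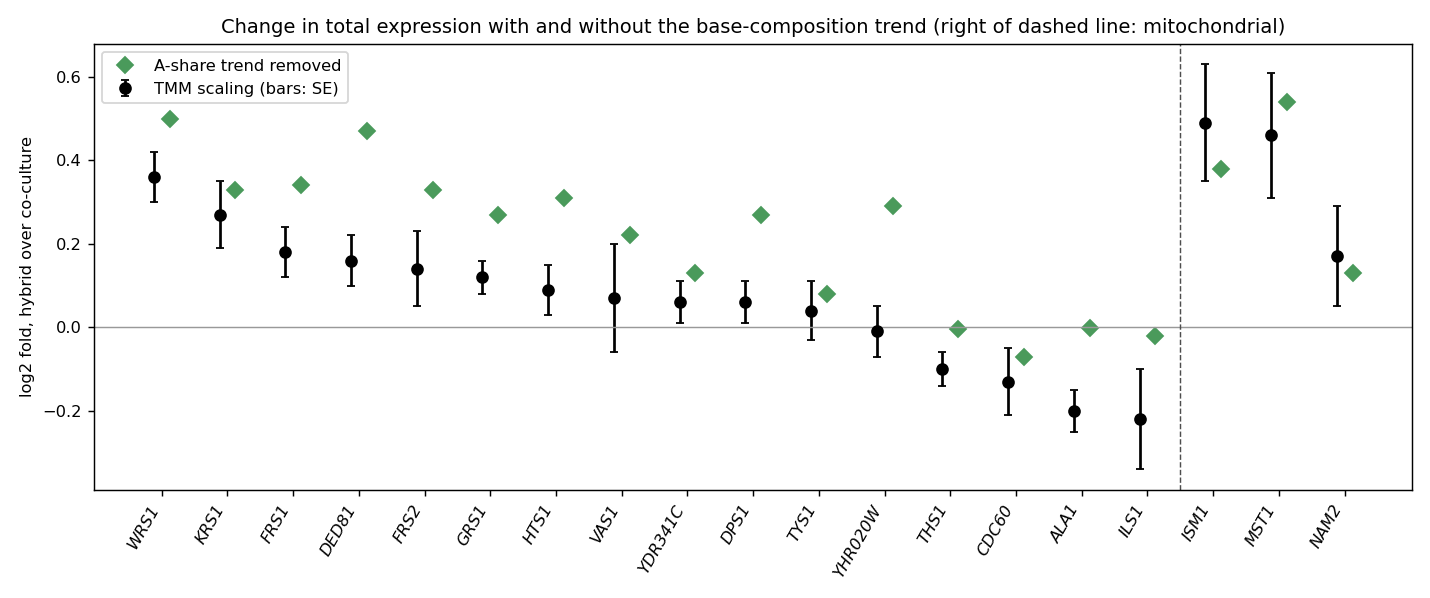
log2 fold of total expression, hybrid over co-culture (y axis), for the 19 tested synthetase genes, with TMM scaling (circles, bars are SE) and with the A-share trend removed (diamonds). With the trend removed, ALA1 and THS1 move to about 0 and WRS1 to 0.50.

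Among the 7 cytosolic genes with TGACTC, ALA1 and THS1 among them, 1 was higher and 2 were lower in the hybrid, with a median log2 fold of -0.01. Among the 9 without it, 4 were higher and 0 lower, with a median of 0.12 (0 lower at an unadjusted p as well, since the 2 lower members both hold the motif). Over all genes tested, 29.5% were higher and 31.8% lower, with a median of 0.01. With the A-share trend removed the medians were 0.13 and 0.31, and the counts 3 and 7 higher and 0 lower in both. Over all 2780 genes in that fit, 782 were higher and 690 lower, with a median of 0.02. DED81 is 1 of the 4 higher genes counted without the motif, and its divergent neighbour YHR020W is counted with it. The YHR020W match, 182 bases before that gene's start codon, lies between these neighbours. It falls just beyond the window searched for DED81, so this site was assigned to YHR020W only. The difference between the genes with and without TGACTC was not tested.

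The mitochondrial genes were few and shallow, and those that passed were higher in the hybrid. ISM1 (YPL040C), the isoleucyl enzyme of the mitochondrion, ran from 93.4 through a median of 110.2 to 125 CPM in the hybrid, and from 53.6 through 75.4 to 97.6 CPM in the co-culture. The highest co-culture library lay above the lowest hybrid one and the rest were apart, and the log2 fold was 0.49 (SE 0.14, adjusted p = 0.00205). MST1 (YKL194C), the threonyl enzyme, ran from 78.5 through 98.5 to 106 CPM in the hybrid, and from 41.4 through 78.4 to 99.9 CPM in the co-culture.

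The MST1 groups overlapped, with co-culture replicates 3 and 5 far below the rest, and the log2 fold was 0.46 (SE 0.15, adjusted p = 0.00738). NAM2 (YLR382C), the leucyl enzyme that also helps mitochondrial introns splice, averaged 124 ± 14.2 CPM in the hybrid, against 109.9 ± 7.6 CPM in the co-culture (SD, n = 6 each). Its fold of 0.17 did not pass (SE 0.12, adjusted p = 0.205). For threonine, the mitochondrial MST1 had a fold of 0.46 and the cytosolic THS1 one of -0.10, or 0.54 and -0.0048 with the A-share trend removed. For isoleucine, the mitochondrial ISM1 had a fold of 0.49 and the cytosolic ILS1 one of -0.22 that did not pass, or 0.38 and -0.02 with the trend removed. For leucine, NAM2 stood at 0.17 and the cytosolic CDC60 at -0.13, and neither passed. Other pairs in the files had a mitochondrial gene under the read minimum. Fitted without that minimum, MSK1 (lysine, -0.35), SLM5 (asparagine, -0.24), MSY1 (tyrosine, -0.98) and MSW1 (tryptophan, 0.02) did not pass. The cytosolic KRS1, DED81, TYS1 and WRS1 had main-fit folds of 0.27, 0.16, 0.04 and 0.36. For aspartate, MSD1 stood at 1.80 without the minimum and DPS1 at 0.06. The difference between the genes of a pair was not tested.

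The mitochondrial genes took a larger share of synthetase reads in the hybrid. That share was 2.73 ± 0.108% in the hybrid (2.60% to 2.91%) and 2.22 ± 0.208% in the co-culture (1.93% to 2.45%; SD, n = 6 each), a difference of 0.517 percentage points. No hybrid library fell within the co-culture range. This is a description of chosen genes with no test. Because both parts of the share come from the same library, the share does not depend on the scaling between libraries. The mitochondrial genes had the higher A share, as given above, and its part in this difference was not tested. Of all reads in a library, unscaled, the synthetases took 1.61 ± 0.0395% in the hybrid, against 1.45 ± 0.0216% in the co-culture. The mitochondrial genes took 0.0439 ± 0.00208% and 0.0322 ± 0.00316% of library reads in the hybrid and the co-culture. These unscaled shares are to be read beside the folds without TMM scaling. There the median log2 fold was 0.12 over all genes tested and 0.20 over the tested synthetases.

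**Figure D4:**
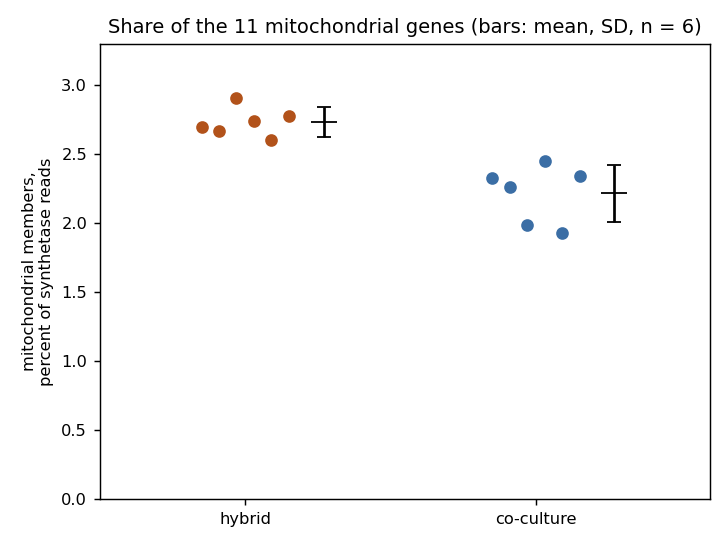
Reads of the 11 mitochondrial genes as percent of all synthetase reads (y axis) in each summed library; points are libraries and bars the mean and SD of 6. The hybrid points (2.60% to 2.91%) lie above every co-culture point (1.93% to 2.45%).

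The other 8 mitochondrial genes were under the read minimum and had 258 reads in the hybrid, against 187 in the co-culture in all. DIA4 (YHR011W), the seryl enzyme, had 86 and 38 reads in the hybrid and the co-culture, MSD1 (aspartyl) 28 and 7, MSE1 (glutamyl) 61 and 57, and MSM1 (methionyl) 27 and 19. MSW1 (tryptophanyl) had 13 and 12, MSK1 (lysyl) 20 and 24, SLM5 (asparaginyl) 18 and 20, and MSY1 (tyrosyl) 5 and 10. So 5 of 8 had more reads in the hybrid. When the read minimum was dropped, DIA4 (log2 fold 1.07, SE 0.28, adjusted p = 0.000632) and MSD1 (1.80, SE 0.55, adjusted p = 0.00372) passed and the other 6 did not, against 43.5% of 4430 genes called in that fit. DIA4 ran from 20.4 through 33.9 to 46.7 CPM in the hybrid, and from 7.25 through 15.7 to 24.4 CPM in the co-culture. MSD1 had 0 reads in 3 co-culture libraries, so its fitted fold is not well set.

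Within the hybrid, RM and BY alleles share 1 nucleus, so their ratio compares the alleles under the same regulators. It was close to even for the synthetases. In the joint fit, 0 of 19 genes had a higher RM allele and 2 a lower one (10.5%), against 20.1% of 2661 gene pairs tested (10.3% RM higher and 9.73% lower). At an unadjusted p under 0.05, edgeR gave 1 higher and 4 lower, and DESeq2 called 0 in either direction after adjustment. The median log2 ratio was -0.01 and the range -0.22 to 0.27, and the ends of that range, KRS1 (-0.22, adjusted p = 0.0773) and ILS1 (0.27, adjusted p = 0.277), did not pass.

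The 2 genes with a lower RM allele, GRS1 and ALA1, are among the 4 dual genes, of which HTS1 (0.01) and VAS1 (-0.17) did not pass. GRS1 had 3285 RM reads and 3574 BY reads in the hybrid, and the scaled log2 ratio ran from -0.25 through a median of -0.12 to -0.08 over libraries. BY was higher in 6 of 6 libraries, and the fitted ratio was -0.12 (SE 0.04, adjusted p = 0.00533), with DESeq2 at -0.13 (adjusted p = 0.0559). ALA1 had 1203 RM reads and 1345 BY reads, with library ratios from -0.31 through -0.04 to 0.23. Its libraries were split 3 to 3 between the alleles. The fitted ratio was -0.16 (SE 0.06, adjusted p = 0.0438), and it lost its call without hybrid replicate 4 (-0.09, adjusted p = 0.489), replicate 5 (-0.16, adjusted p = 0.0507) or replicate 6 (-0.10, adjusted p = 0.384). Hybrid replicates 4 and 6 sum 4 and 3 libraries, and replicate 5 is 1 library. The ALA1 call was also lost by DESeq2 (-0.12, adjusted p = 0.481), without the library block (-0.14, adjusted p = 0.19) and without TMM scaling (-0.14, adjusted p = 0.0815).

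In the co-culture each allele sits in its own strain, so the ratio compares the parents, after scaling for unequal shares of the strains. RM made up 49.68 ± 0.05% of all reads in the hybrid, against 54.82 ± 0.1% in the co-culture (SD, n = 6 each), so a raw share above 50% in the co-culture can be a lower RM level after scaling. Among the synthetases, 0 of 19 were higher in RM and 5 were lower (26.3%), against 40.3% of gene pairs tested (21.8% RM higher and 18.5% lower). The count of higher genes was also 0 at an unadjusted p and by DESeq2. The median log2 ratio was -0.15, against 0.01 over all gene pairs. Without TMM scaling, 7 were lower and the medians were -0.22 for the synthetases and -0.05 for all.

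The 5 genes with a lower RM level were CDC60, GRS1, TYS1, DPS1 and THS1, all active in the cytosol, as were 16 of the 19 tested. CDC60 had the largest ratio, -0.35 (SE 0.11, adjusted p = 0.00354), and was the most variable, with libraries from -1.02 through -0.41 to 0.21. GRS1 ran from -0.49 through -0.26 to -0.22, with BY higher in 6 of 6 libraries, and its fitted ratio was -0.27 (SE 0.04, adjusted p = 2.89e-11). THS1 ran from -0.27 through -0.13 to -0.09, again with BY higher in 6 of 6, and its fitted ratio was -0.15 (SE 0.03, adjusted p = 2.76e-06).

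TYS1 had a ratio of -0.26 (SE 0.09, adjusted p = 0.0146) and DPS1 one of -0.17 (SE 0.06, adjusted p = 0.00746), with 1 co-culture library of each on the RM side. Without co-culture replicate 2 they became -0.20 (adjusted p = 0.128) and -0.15 (adjusted p = 0.0509). Of the 3 mitochondrial genes above the read minimum, MST1 had the lowest ratio (-0.42, SE 0.22, adjusted p = 0.117), which did not pass.

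The difference between the hybrid ratio and the co-culture ratio was tested in the same fit. It passed for 3 of 19 synthetases (15.8%), all with a ratio shifted toward RM in the hybrid, and for 0 in the other direction (also 0 at an unadjusted p and by DESeq2), against 20.7% of gene pairs tested (8.76% toward RM and 12% toward BY). THS1 had the smallest adjusted p. Its library ratios in the hybrid ran from -0.04 through 0.04 to 0.14, all above the co-culture range given above. The difference was 0.17 (SE 0.04, adjusted p = 0.000483) and kept its call in every alternative tried, leaving out each library included.

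The THS1 levels of each allele are given here under TMM scaling. RM averaged 3841 ± 149 CPM in the hybrid, against 3879.6 ± 114 CPM in the co-culture, and BY averaged 3728 ± 234 and 4300.1 ± 133 CPM in the hybrid and the co-culture (SD, n = 6 each). The RM ranges overlapped, and the BY ranges did not, with 3314 to 3997 CPM in the hybrid, against 4132 to 4459.8 CPM in the co-culture. These levels depend on the scaling of each allele column, so they do not settle which allele moved. The total THS1 fold was -0.10 with TMM scaling and 0.0022 without it.

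CDC60 differed by 0.42 (SE 0.15, adjusted p = 0.033). Its hybrid ratios ran from -0.12 through 0.06 to 0.22, inside the co-culture spread in part. The scaled RM allele averaged 288 ± 17.4 CPM in the hybrid, against 263 ± 52.4 CPM in the co-culture, and the BY allele 278 ± 26.4 and 345 ± 45.7 CPM in the hybrid and the co-culture (SD, n = 6 each). With 362 to 400 reads per allele in the groups, the call was lost in 6 alternatives, including DESeq2 (0.44, adjusted p = 0.162), the fit without the read minimum (0.40, adjusted p = 0.0681), and the omission of hybrid replicate 4 (0.41, adjusted p = 0.0768) or of co-culture replicate 1, 2 or 6 (0.37 to 0.40).

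GRS1 differed by 0.15 (SE 0.05, adjusted p = 0.0311). Its RM allele averaged 2451 ± 128 CPM in the hybrid, against 2154 ± 104 CPM in the co-culture, and its BY allele 2700.2 ± 57.9 and 2633 ± 93.3 CPM in the hybrid and the co-culture (SD, n = 6 each). The call was lost without hybrid replicate 4 (0.12, adjusted p = 0.133), without co-culture replicate 1 (0.13, adjusted p = 0.0781), without the read minimum (0.13, adjusted p = 0.104) and by DESeq2 (0.16, adjusted p = 0.107). ILS1 had a difference of 0.43 with a wide error (SE 0.23, adjusted p = 0.187). Across the 19 genes the ratios of the hybrid and of the co-culture, which come from separate libraries, had a Spearman rho of 0.47 and the same sign in 12, against a rho of 0.36 and 1678 of 2661 over all gene pairs, as a description over genes.

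**Figure D5:**
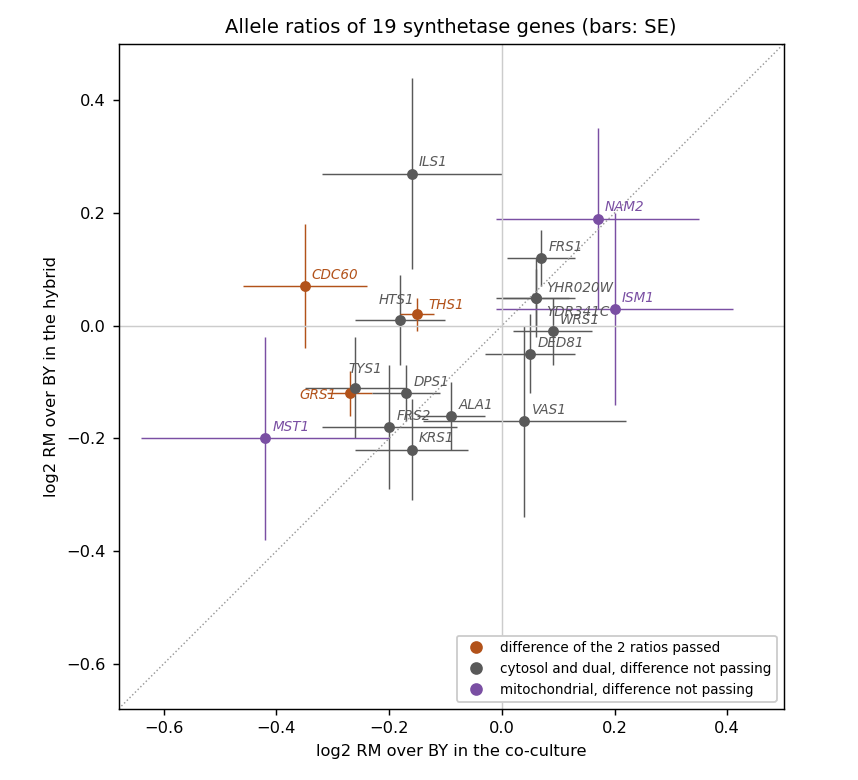
log2 ratio of RM over BY in the hybrid (y axis) against that in the co-culture (x axis) for the 19 tested synthetase genes, with SE bars and a dotted line where they are equal. THS1, GRS1 and CDC60, whose difference passed, lie left of and above the dotted line.

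Other genes of the charging pathway were given as lists for context. Their counts in total expression stand beside 61.3% of all genes tested that were called, 29.5% higher and 31.8% lower. Of 13 cytosolic partners and delivery factors, 8 were in the files and tested, of which 4 were higher in the hybrid and 2 lower, with a median log2 fold of 0.19. EFB1, which reloads the tRNA carrier eEF1A, had a fold of 0.66 (SE 0.04, adjusted p = 1.43e-22), with 2925 ± 167 CPM in the hybrid, against 1851 ± 83.6 CPM in the co-culture (SD, n = 6 each). ARC1, the cofactor that binds the methionyl and glutamyl enzymes, had a fold of 0.65 (SE 0.06, adjusted p = 1.45e-14), with 660 ± 50.8 and 418 ± 28.7 CPM in the hybrid and the co-culture. MES1 and GUS1, whose enzymes it binds, are among the genes not analysed here. DTD1, which frees tRNA of D-amino acids, had a fold of 0.54, and EFT2, an elongation factor, one of -0.53. With the A-share trend removed these were 0.27 (adjusted p = 0.021) and -0.11 (adjusted p = 0.0133).

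Of 10 mitochondrial partners, 9 were in the files and 4 were tested, of which 2 were higher and 1 was lower, with a median of 0.36. MEF1, the translocation factor of the mitochondrial ribosome, had a fold of 0.58, RRF1, its recycling factor, 0.57, and TUF1, the carrier of charged tRNA in mitochondria, -0.15. With the A-share trend removed, RRF1 stood at -0.14 (adjusted p = 0.567) and lost its call, and TUF1 turned to 0.15 (adjusted p = 0.0158). In the co-culture, MEF1 (0.63), RRF1 (0.80) and TUF1 (0.45) had higher RM levels, and PET112 (0.08) did not pass. Over all gene pairs tested, 40.3% were called in the co-culture, 21.8% with RM higher. The hybrid minus co-culture difference passed for MEF1 (-0.66) and TUF1 (-0.52), toward BY, against 20.7% of all gene pairs tested, 12% toward BY. Of the 8 tested cytosolic partners, 4 had higher RM levels in the co-culture and 0 lower. The difference passed for 2 of these 8, EFB1 (-0.30) and YEF3 (-0.32), toward BY, and for 0 toward RM. Of 4 starvation-sensing genes 3 were tested. GCN4 (0.15) and GCN20 (0.19) were higher in the hybrid and GCN1, a partner of Gcn2, lower (-0.32). With the A-share trend removed, GCN4 stood at 0.32 and GCN1 at -0.07 (adjusted p = 0.112), which lost its call. In the co-culture, GCN1 had a lower RM level (-0.41), and GCN4 and GCN20 did not pass. The difference of the allele ratios passed toward RM for GCN20 (0.38) and GCN1 (0.18), and toward BY for GCN4 (-0.25).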

How the data were processed

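The deposited files hold, per the file headers, raw read counts of the BY and RM alleles over sites that differ between the strains, for 4442 gene pairs in 24 libraries, with no normalisation. The sources used here name neither an aligner nor a genome build. Per the labels, RNA was extracted with hot acid phenol and selected on oligo-dT.

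Within a group, libraries whose counts did not differ by a chi-square test over allele counts of at least 20 reads in the pair (p of at least 0.05) were summed, which gave 6 libraries per group. Total counts (genes averaging 10 or more reads per library in the hybrid or the co-culture) and allele counts (at least 100 reads in each group, library as a block) were tested with edgeR 4.0.16 in R 4.3.3 after TMM scaling, two-sided, at an adjusted p of 0.05. The fits were tested on simulated data. DESeq2 1.42.0, other scalings and filters, and leaving out each library were alternatives.

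Members and lists were chosen with earlier results of these data known. Values in full were reserved for members past the threshold with a log2 size of at least 0.5. As 0 members reached that in the total fold or the allele ratios, those that passed are given, chosen after their values were seen. Gene names, promoters and A shares came from R64.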

Additional observations from a re-analysis of the deposited data

Results flagged for a closer look

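Of 52 gene-by-group sets of 6 libraries examined, 7 had 1 library far from the other 5. For 6 equally precise values, chance would set apart about 1 in 20 such sets. The summed libraries hold unequal numbers of reads, so that rate need not hold here. In total level, these were hybrid replicate 2 for DED81 (471 CPM, others 621 to 706) and for GRS1 (2381 CPM, others 2567 to 2633), hybrid replicate 1 for CDC60 (313 CPM, others 270 to 284), and co-culture replicate 1 for YDR341C (1309 CPM, others 1111 to 1182). In the log2 ratio of RM over BY, these were co-culture replicate 4 for DPS1 (0.14, others -0.33 to -0.17), replicate 1 for GRS1 (-0.49, others -0.29 to -0.22) and replicate 3 for THS1 (-0.27, others -0.15 to -0.09).

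For 3 genes the allele ratio in the hybrid differed from that in the co-culture in the joint edgeR fit, by 0.17 for THS1 (adjusted p = 0.000483), 0.15 for GRS1 (adjusted p = 0.0311) and 0.42 for CDC60 (adjusted p = 0.033).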

How the results depend on the processing

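Depth, unequal between members, limits the mitochondrial genes most. In total expression 1712 genes were called, and 1569 to 1715 with 1 summed library left out, with 6 to 9 synthetases higher and 1 or 2 lower. Synthetases called higher numbered 12 without TMM scaling and 12 with the A-share trend removed, and those called lower 0, 0, and 1 under the stricter filter of 30 reads. Without TMM scaling the median of all genes moved to 0.12, against 0.01 with it, and THS1 to 0.0022, against -0.10, so it was below that median in both. For the hybrid allele ratio 534 gene pairs were called (276 by DESeq2, 355 to 536 leaving out a library), and lower synthetases numbered 1 without TMM scaling, 1 without the library block, 0 by DESeq2 and 1 to 3 leaving out a library, with 0 higher. In the co-culture 1072 were called (875 to 1059), with 0 or 1 synthetase higher and 3 to 6 lower, and 1 higher without the read minimum. The difference gave 552 (303 by DESeq2, 447 to 531), with 1 to 3 synthetases higher, 1 by DESeq2, and 0 lower, or 1 without the read minimum. The mitochondrial share differed by 0.517 points, by 0.46 to 0.563 leaving out a library, and by 0.71 without the dual genes. Leaving out the dual genes shrinks the total that the share is taken of, which by itself enlarges the share in both groups. The causes of the changes between settings were not tested.

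Of 374 single-gene results under alternatives, 342 kept direction and call, 31 lost the call and 1 reversed. With hybrid libraries 1 and 9 left out, chosen after seeing the data, 1692 genes were called in total expression, with 7 synthetases higher and 2 lower. Library numbers did not pair the groups: correlations of same-numbered deviations were -0.028 to 0.063 over 12 pairs, and 1 library correlated best with its own number. The fit with the replicate number as a block called 1777 genes, with 7 synthetases higher and 2 lower.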

Other observations

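The mitochondrial genes with few reads held allele counts that the tests above left out. DIA4 had 36 RM and 50 BY reads in the hybrid, an RM share of 41.9% (95% exact binomial interval 31.3% to 53.0%, counting error only), and 29 RM and 9 BY reads in the co-culture, a share of 76.3% (59.8% to 88.6%). Without the read minimum, the ratio in the hybrid minus that in the co-culture was -1.90 (SE 0.63, adjusted p = 0.026, edgeR). MSW1 had 12 RM reads and 1 BY read in the hybrid, a share of 92.3% (64% to 99.8%), of which 8 RM reads came from hybrid replicate 4. In the co-culture it had 2 RM and 10 BY reads, a share of 16.7% (2.09% to 48.4%). Its difference was 5.0 (SE 1.54, adjusted p = 0.0144), a fitted value at very few reads.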
